A study of Bos taurus with 10 samples.

Results

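Fatty acid synthesis and triglyceride assembly were examined in the liver of pregnant Holstein cows through a small set of genes, 5 Ensembl IDs that were named with the symbols ACACA, FASN, SCD, DGAT1 and SREBF1 when the set was defined. The set was defined by what the genes do, with earlier results of these data known. The count table itself carries IDs only, and 4 of the 5 IDs were among its 27607 rows. Row ENSBTAG00000045728 (SCD) was not analysed here. Liver RNA was measured in 10 libraries, 5 from cows labelled over-conditioned, that is, carrying excess body fat, and 5 from cows labelled normal-conditioned. Each sample was taken 2 weeks before expected calving, and the labels give no treatment, age or genotype other than the breed. The labels do not state that each library is a separate cow, so the p-values below measure the spread between these libraries, which may be partly technical. The study's title sets the question, which is how over-conditioning changes hepatic gene expression at the end of pregnancy.

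Fatty acids are built from acetyl-CoA in steps that these genes cover. ACACA encodes acetyl-CoA carboxylase alpha, which makes malonyl-CoA, and FASN encodes fatty acid synthase, which extends the chain to palmitate. SCD encodes the desaturase that places a double bond in the chain, and DGAT1 encodes an enzyme that adds the last acyl chain to form triglyceride. SREBF1 encodes a membrane-bound transcription factor that is released by cleavage and switches on lipogenic genes, FASN and ACACA among them, in response to insulin. In ruminants most fatty acid synthesis takes place in adipose tissue and, during lactation, in the mammary gland, with acetate as the main carbon source. The ruminant liver contributes little to it, but it takes up and esterifies fatty acids released from adipose tissue around calving.

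Libraries were made with a 3' mRNA kit, in which sequencing starts near the poly(A) tail. A sampled transcript gives about 1 read there, long or short, so levels were compared between genes without a length term, as counts scaled to a column total of 1000000 (CPM). Total counts ran from 3892292 to 6737548 per library. Over-conditioned replicate 2 was the shallowest library and over-conditioned replicate 5 the deepest. Levels are those of bulk liver, in which fewer cells of a type and less RNA per cell cannot be told apart. Hepatocyte and other cell type markers could not be matched to IDs, so the labelled tissue was not checked against them.

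SREBF1, the regulator, had the highest level by counts of the 3 genes that passed the filter on low counts, at 14.9 ± 4.37 CPM (SD, n = 10). FASN followed at 9.53 ± 3.57 CPM and DGAT1 at 7.35 ± 3.09 CPM (SD, n = 10 each). All 3 lay in the middle or lower part of the 9162 genes that passed this filter, whose median was 13.5 CPM. SREBF1 ranked 4372, FASN 5468 and DGAT1 6109 by mean CPM. These levels rested on 42 to 116 counts per library for SREBF1, 30 to 93 for FASN and 25 to 55 for DGAT1.

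**Figure D1:**
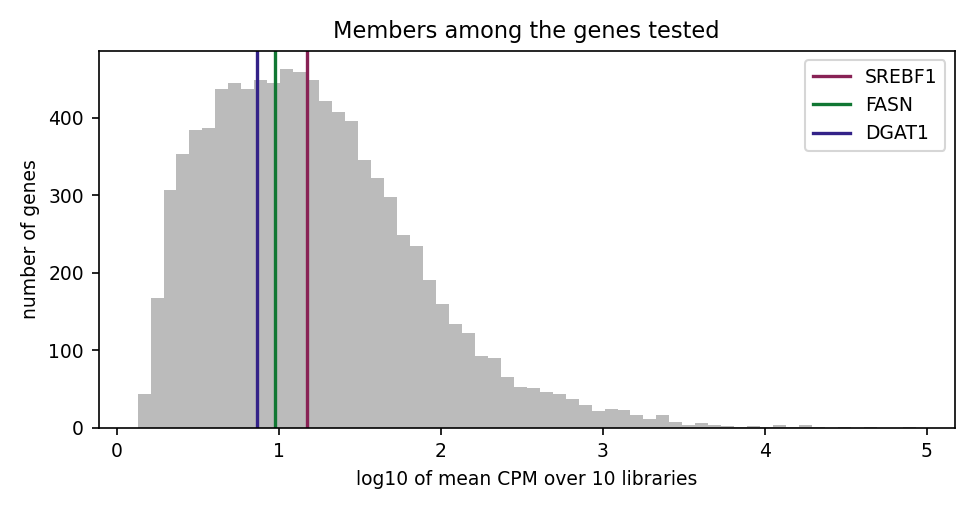
Histogram of the mean level of the 9162 genes tested, as log10 of mean CPM over 10 libraries on the x axis and number of genes on the y axis, with vertical lines at SREBF1, FASN and DGAT1. The lines for SREBF1 (14.9 CPM), FASN (9.53 CPM) and DGAT1 (7.35 CPM) fall just above (SREBF1) and below (FASN, DGAT1) the median of 13.5 CPM.

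ACACA (ENSBTAG00000017567), which supplies the substrate of FASN, was close to uncounted. It had 1 count in over-conditioned replicate 1, 1 count in over-conditioned replicate 4 and 0 in the other libraries. A count of 0 allows up to 0.445 CPM in the deepest and 0.771 CPM in the shallowest library, taking 3 counts as the limit. Over all 55641640 counts the pooled level was 0.0359 CPM, with an exact 95% Poisson interval of 0.00435 to 0.13 CPM. FASN had 262 times as many counts as ACACA (exact 95% interval 72.2 to 2169), SREBF1 404 times (111 to 3342) and DGAT1 194 times (53.3 to 1608). Each of these counts was higher than that of ACACA in 10 of 10 libraries. These intervals and limits cover counting error only. Such low totals were common in the table, since 13375 of the 27607 IDs, 48.4%, had 2 counts or fewer over the 10 libraries. Most of these, 11634 IDs, had no count in any library, unlike ACACA. The assignment of reads to the ends of annotated genes was not given in the sources used here, so the counts under this ID were not read as the activity or the true transcript level of the gene. ACACA did not pass the filter and enters no test.

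The order of the other 3 genes was compared within libraries, where the ratio of counts does not depend on the library total. It is an order of counts under each ID, with the same limit on read assignment as for ACACA. A share of reads gained or lost by a gene would repeat in every library, so these tests cannot separate it from transcript level. SREBF1 exceeded FASN in 9 of 10 libraries and equalled it in over-conditioned replicate 3, with a geometric mean ratio of 1.58 (range 1.00 to 3.03). The difference was larger than the spread between libraries (exact sign-flip test, two-sided, p = 0.00391, adjusted p = 0.00586 over the 3 pairs). SREBF1 exceeded DGAT1 in 10 of 10 libraries, with a geometric mean ratio of 2.07 (range 1.13 to 3.64; exact sign-flip test, p = 0.00195, the smallest that 10 libraries allow, adjusted p = 0.00586). FASN exceeded DGAT1 in 8 of 10 libraries, with a ratio of 1.31. FASN and DGAT1, neighbours in the order, did not differ beyond their spread (exact sign-flip test, p = 0.0508, adjusted p = 0.0508). DGAT1 was the higher of the pair in over-conditioned replicate 1 (ratio 0.708) and in normal-conditioned replicate 4 (0.955). Without the first, the same exact sign-flip test gave p = 0.00781 over 9 libraries (adjusted p = 0.00781). Without any other single library it gave p of 0.0508 to 0.102. Leaving out the library most against the order lowers p by that choice, so the lower p is no support for the order.

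FASN (ENSBTAG00000015980) stood at 7.83, 15.9, 14.8, 8.46 and 5.79 CPM in over-conditioned replicates 1 to 5. In normal-conditioned replicates 1 to 5 it stood at 12.0, 7.59, 6.15, 7.05 and 9.69 CPM. Over-conditioned replicates 2 and 3 were the highest of all libraries and over-conditioned replicate 5 the lowest, so the range of the normal-conditioned group fell inside that of the over-conditioned group. FASN averaged 10.6 ± 4.52 CPM in the over-conditioned and 8.50 ± 2.36 CPM in the normal-conditioned group (SD, n = 5 per group). The log2 fold of over-conditioned over normal-conditioned was 0.25 (SE 0.28, 95% interval -0.36 to 0.86), with an adjusted p of 0.853 in edgeR's quasi-likelihood test. This interval spans folds of 0.780 to 1.81. The log2 fold was 0.07 without over-conditioned replicate 2, 0.06 without over-conditioned replicate 3, 0.39 without over-conditioned replicate 5, 0.42 without normal-conditioned replicate 1 and 0.16 without normal-conditioned replicate 3.

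DGAT1 (ENSBTAG00000026356), at the triglyceride-forming step, stood at 11.1, 14.1, 7.49, 7.30 and 5.05 CPM in over-conditioned replicates 1 to 5. The normal-conditioned values were 4.78, 4.36, 5.13, 7.39 and 6.87 CPM in the same order. Over-conditioned replicates 1, 2 and 3 lay above every normal-conditioned library, while over-conditioned replicates 4 and 5 lay within the normal-conditioned range. DGAT1 averaged 9.00 ± 3.58 CPM in the over-conditioned and 5.70 ± 1.34 CPM in the normal-conditioned group (SD, n = 5 per group). The log2 fold was 0.58 (SE 0.26, 95% interval 0.03 to 1.13), which spans folds of 1.02 to 2.19. The edgeR quasi-likelihood test gave an unadjusted p of 0.0394 and an adjusted p of 0.652 over the 9162 genes tested, so the difference did not pass the adjusted threshold of 0.05. Over all genes, 7.55% had an unadjusted p under 0.05, and 5.85% had a log2 fold at least as far from 0 as that of DGAT1. Without over-conditioned replicate 2 the log2 fold was 0.37 and the unadjusted edgeR p was 0.135. The unadjusted p was under 0.05 in 10 of 17 alternatives (range 0.0125 to 0.135); it was also over 0.05 without over-conditioned replicate 1 (0.0892) or normal-conditioned replicate 1 (0.0805), 2 (0.0844) or 3 (0.0681), with limma-voom (0.0786) and with the replicate block (0.0907).

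The level of DGAT1 also moved with the depth of the library. Its log2 CPM fell with the log2 of the total count across the 10 libraries (Pearson r = -0.79, permutation p = 0.00661, adjusted p = 0.0198 over the 3 genes; Spearman rho = -0.64, p = 0.0553, adjusted p = 0.166). Without over-conditioned replicates 1 and 2, the shallowest libraries, r was -0.25 (exact permutation p = 0.531 over 8 libraries). Both were left out as the farthest from the median depth. That narrows the range of depth, so this value cannot settle whether the relation rests on those libraries. Over all 10 libraries r was -0.53 for SREBF1 (permutation p = 0.116, adjusted p = 0.174; rho = -0.52, p = 0.133, adjusted p = 0.2001) and -0.22 for FASN (permutation p = 0.537, adjusted p = 0.537; rho = -0.21, p = 0.56, adjusted p = 0.56). Without the same 2 libraries r was -0.65 for SREBF1 (exact permutation p = 0.0745) and 0.26 for FASN (exact permutation p = 0.527). With the group means removed r was -0.78 for DGAT1, -0.70 for SREBF1 and -0.15 for FASN (exact permutation within groups, unadjusted p = 0.036, 0.0566 and 0.708). The median r with depth over all genes tested was -0.14, and 1.59% of genes had a lower r than DGAT1. Library totals averaged 5290149 ± 1217332 in the over-conditioned and 5838179 ± 616372 in the normal-conditioned group (SD, n = 5 per group). The part of depth in the folds of DGAT1 and SREBF1 was not tested.

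SREBF1 (ENSBTAG00000007884) stood at 12.4, 20.8, 14.8, 14.8 and 6.23 CPM in over-conditioned replicates 1 to 5. In the normal-conditioned replicates it stood at 13.1, 15.5, 18.7, 12.3 and 20.4 CPM. As with FASN, the over-conditioned group held both the highest library, replicate 2, and the lowest, replicate 5, and enclosed the normal-conditioned range. SREBF1 averaged 13.8 ± 5.25 CPM in the over-conditioned and 15.99 ± 3.52 CPM in the normal-conditioned group (SD, n = 5 per group). The log2 fold was -0.28 (SE 0.25, 95% interval -0.81 to 0.24), with an adjusted p of 0.808 in edgeR. It was -0.47 without over-conditioned replicate 2 and -0.11 without over-conditioned replicate 5.

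**Figure D2:**
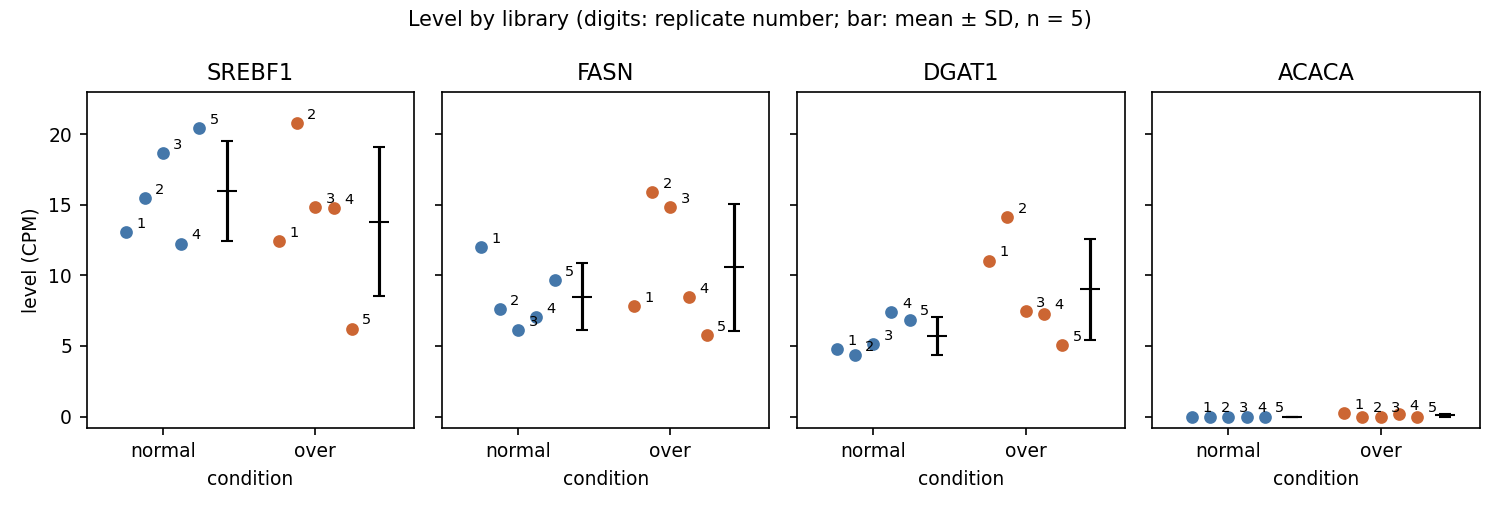
Level in CPM (y axis) of SREBF1, FASN, DGAT1 and ACACA in each library, by condition (x axis); digits give replicate numbers and bars the mean ± SD of 5 libraries. Over-conditioned replicate 2 is the highest point for SREBF1, FASN and DGAT1, the groups overlap in these 3 genes, and ACACA lies at or near 0 in all libraries.

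None of the 3 genes tested passed the adjusted threshold between the conditions, against a background of 0 of 9162 genes, 0%, in edgeR; 692 genes had an unadjusted p under 0.05, limma-voom called 0 genes and DESeq2 called 21. At the unadjusted threshold 1 of the 3, DGAT1, had p under 0.05 in edgeR, higher in over-conditioned libraries, where 4.16% of all genes were higher with such a p and 3.39% lower. Non-overlapping groups were found in 0 of the 3 genes and in 1.28% of all genes. The median log2 fold of all genes was 0.01 and the median distance from 0 was 0.17, beside 0.25, 0.58 and -0.28 for FASN, DGAT1 and SREBF1. The enzymes and the regulator stood on different sides of 0, and the 95% intervals of FASN and SREBF1 both included 0.

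**Figure D3:**
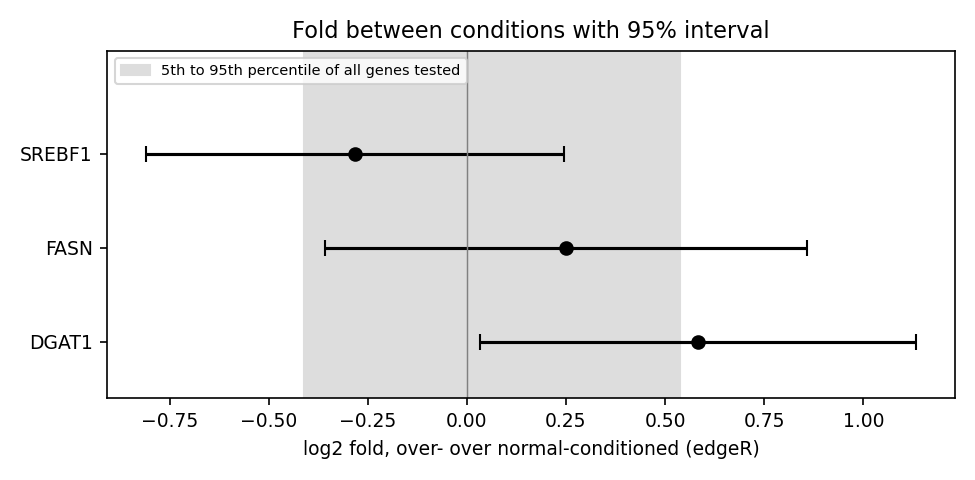
Log2 fold of over- over normal-conditioned libraries from edgeR (x axis) with its 95% interval for SREBF1, FASN and DGAT1 (y axis); the grey band spans the central range of all genes tested, from -0.41 (5th percentile) to 0.54 (95th). The interval of DGAT1 (0.03 to 1.13) lies just above 0, and those of SREBF1 and FASN cross it.

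The balance between the genes within a library was examined after their levels had been seen, and is given as a description. In over-conditioned replicates 1 to 5 the ratio of SREBF1 to DGAT1 counts was 1.13, 1.47, 1.98, 2.03 and 1.24. In normal-conditioned replicates 1 to 5 it was 2.74, 3.56, 3.64, 1.66 and 2.97. Only normal-conditioned replicate 4 lay within the over-conditioned range, and the other 4 normal-conditioned libraries lay above every over-conditioned one. On the log2 scale the ratio averaged 0.61 ± 0.39 in the over-conditioned and 1.49 ± 0.46 in the normal-conditioned group (SD, n = 5 per group), a difference of -0.88. The log2 ratio of SREBF1 to FASN was 0.39 ± 0.35 and 0.93 ± 0.54 in the same order, with overlap from 1.09 to 1.75 as a ratio. That of FASN to DGAT1 was 0.21 ± 0.52 and 0.56 ± 0.53, with overlap from 0.955 to 1.98. These ratios reuse the counts of the levels above, so they are no independent evidence of a difference.

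**Figure D4:**
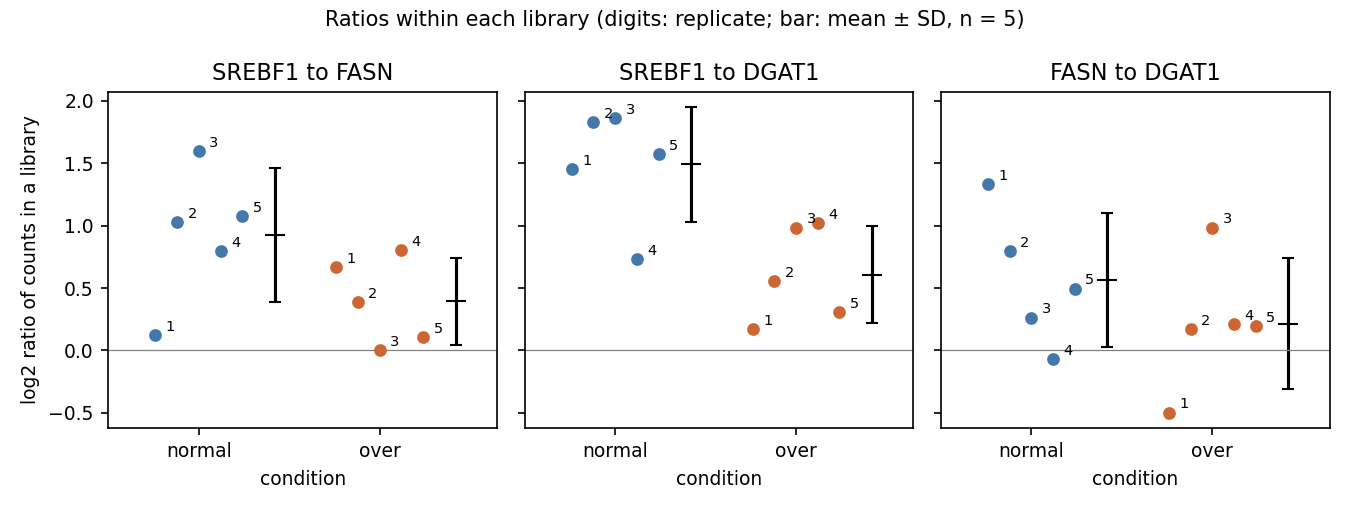
Log2 ratio of counts within each library (y axis) for the 3 pairs of genes, by condition (x axis); digits give replicate numbers, bars the mean ± SD of 5 libraries and the grey line equal counts. For SREBF1 to DGAT1 the over-conditioned points sit around 0.61 and the normal-conditioned points around 1.49, with replicate 4 as the lowest of the latter.

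The coefficient of variation of CPM over the 10 libraries was 37.4% for FASN, 41.97% for DGAT1 and 29.3% for SREBF1; counting error alone would give 14.0%, 16.3% and 11.3%. The highest library exceeded the lowest 2.75-fold for FASN, 3.24-fold for DGAT1 and 3.34-fold for SREBF1. The 3366 genes between 5 and 20 CPM had a median coefficient of variation of 25.1% and a median range of 2.24-fold. Of these genes, 15.4% varied more than FASN, 9.69% more than DGAT1 and 33.5% more than SREBF1. The spread was wider in over-conditioned libraries for all 3 genes, at 42.8%, 39.8% and 37.99% for FASN, DGAT1 and SREBF1, against 27.7%, 23.5% and 21.99% in normal-conditioned libraries. That difference in spread was not tested. The share of all genes with a wider spread in over-conditioned libraries was not counted. The wider spread can therefore not be called particular to these 3 genes. Library totals were also more spread in that group (SD 1217332 against 616372). Counting alone would give 13.9%, 15.3% and 12.3% for FASN, DGAT1 and SREBF1 in over-conditioned libraries. In normal-conditioned libraries it would give 14.2%, 17.4% and 10.5%, the 17.4% for DGAT1 beside the 23.5% observed.

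SREBF1 is a known activator of FASN, and the 3 levels were compared across the 10 libraries on the log2(CPM + 0.5) scale. Of the 10 pairs that 5 genes would give, 3 could be tested. SREBF1 and FASN had a Pearson r of 0.49 (permutation p = 0.151, adjusted p = 0.227 over the 3 pairs) and a Spearman rho of 0.52 (p = 0.133, adjusted p = 0.288). FASN and DGAT1 had an r of 0.49 (permutation p = 0.145, adjusted p = 0.227) and a rho of 0.45 (p = 0.192, adjusted p = 0.288). SREBF1 and DGAT1 had an r of 0.32 (permutation p = 0.372, adjusted p = 0.372) and a rho of 0.14 (p = 0.706, adjusted p = 0.706). No pair passed the threshold.

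The positive values fell when 2 over-conditioned libraries were left out. Over-conditioned replicate 2 was the highest library for all 3 genes, and over-conditioned replicate 5 was the lowest for SREBF1 and FASN. They were also the shallowest and the deepest library, and the part of depth in r was not tested. Without these, the 2 libraries farthest from the median of SREBF1, r was -0.093 for SREBF1 and FASN (exact permutation p = 0.83 over 8 libraries) and -0.35 for SREBF1 and DGAT1 (exact permutation p = 0.408). Without over-conditioned replicates 2 and 3, the 2 farthest from the median of FASN, r was 0.04 for FASN and DGAT1 (exact permutation p = 0.923). Leaving out libraries by the level of a gene narrows its range, so these values cannot show how far the relations rest on those libraries. Without any single library r stayed positive, at no less than 0.25 for SREBF1 and FASN, 0.08 for SREBF1 and DGAT1 and 0.17 for FASN and DGAT1. After the group means were removed the values were 0.61 for SREBF1 and FASN, 0.63 for SREBF1 and DGAT1 and 0.43 for FASN and DGAT1 (exact permutation within groups, p = 0.106, 0.111 and 0.312). All 3 genes share the library total as their divisor and come from the same libraries.

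**Figure D5:**
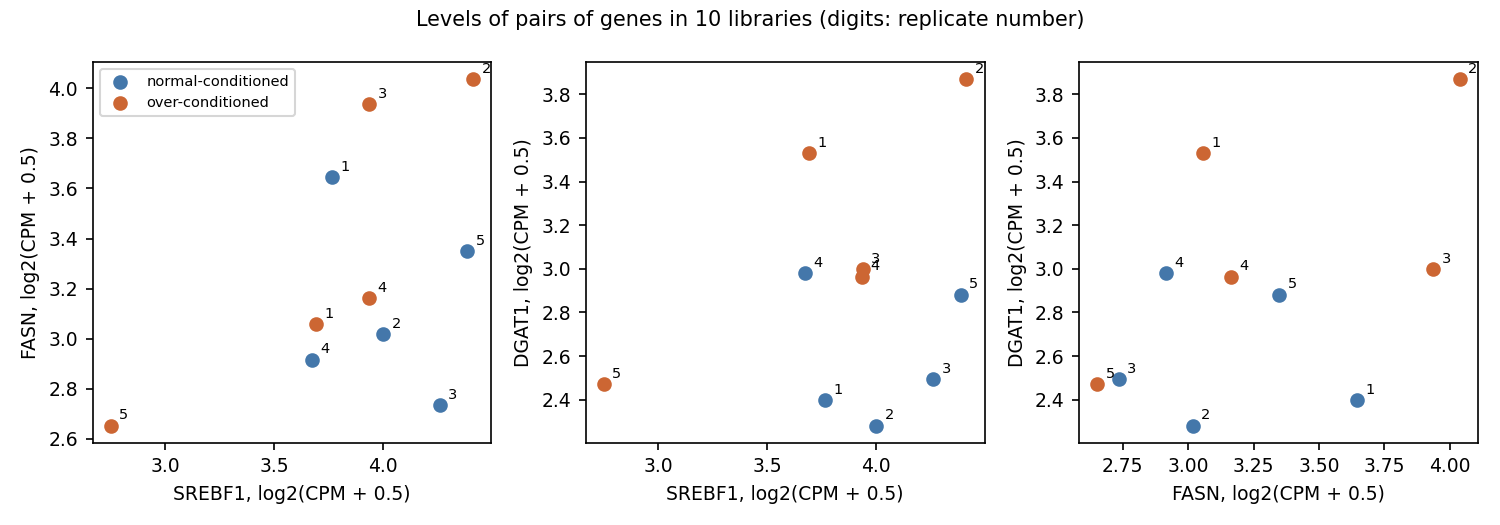
Levels of each pair of genes as log2(CPM + 0.5) on both axes, 1 point per library, coloured by condition and marked with the replicate number. In the panel of SREBF1 and FASN, over-conditioned replicate 2 lies at the upper right and replicate 5 at the lower left, and r over the other 8 points is -0.093.

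The pairings were set beside all genes tested as a description. Of the 9161 other genes, 14.2% followed SREBF1 more closely than FASN did, and 13.1% followed FASN more closely than SREBF1 did. For SREBF1 and DGAT1 the shares were 28.1% (genes closer to SREBF1) and 38.6% (genes closer to DGAT1). For FASN and DGAT1 they were 12.6% (closer to FASN) and 24.5% (closer to DGAT1). An r over 0.8 was reached by 86 genes with SREBF1, 44 with FASN and 317 with DGAT1, where the median gene tested had 48 such partners. An r under -0.8 was reached by 13, 37 and 60 genes in the same order, where the median gene had 17. The level of DGAT1 also fell with depth (r = -0.79), and the part of depth in these numbers was not tested.

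The genes most like the 3 in pattern were taken by mean Pearson r over the 10 libraries. They can be given by ID only, since the table pairs no symbols with its IDs. ENSBTAG00000008443, at 215 CPM on average, had the highest mean r, 0.77, with 0.70 to SREBF1, 0.76 to FASN and 0.83 to DGAT1. ENSBTAG00000018321, at 24.9 CPM, had a mean r of 0.75. Both were highest in over-conditioned replicate 2 (337 and 42.4 CPM), the shallowest library. Both were lowest in over-conditioned replicate 5 (147 and 14.1 CPM), the deepest. The lowest mean r was -0.73 for ENSBTAG00000004871, at 133 CPM, followed by -0.71 for ENSBTAG00000011954, at 174 CPM. These 2 were lowest in over-conditioned replicate 2 and highest in over-conditioned replicate 5 (101 and 163 CPM for the first, 139 and 266 CPM for the second). All of these IDs were chosen by r with the members, so sharing or mirroring their extreme libraries follows largely from that choice.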

How the data were processed

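Liver RNA of 10 libraries was measured by 3' mRNA sequencing with the QuantSeq forward kit and single reads of 75 bases, as the labels' protocols say. Tools named in the submitters' processing notes are RSEM 1.3.1, STAR 2.6.0c and cutadapt 1.18, and the builds are ARS-UCD1.2 and bosTau9, without roles. The values the authors deposited are whole counts for each Ensembl ID, unnormalised. The gene table used here is of another assembly and matched 0 of the IDs, so no positions or sequences are given and 12 pathway and marker lists were not tested. The members and lists were chosen with earlier results of these data known. Named genes are the members and, by rule, the 2 IDs with the highest and the 2 with the lowest mean r with them, here over the 3 members tested.

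Genes were filtered with filterByExpr (minimum count 10, minimum total 15), scaled by TMM and tested with edgeR 4.0.16 (quasi-likelihood, Benjamini-Hochberg) in R 4.3.3. Alternatives used DESeq2 1.42.0 and limma 3.58.1, other scalings, no filter, a replicate block and left-out libraries. The standard error of a fold was its size divided by the root of F. Correlations used 100000 permutations over 10 libraries and full enumeration over fewer, in SciPy 1.17.1 and NumPy 2.4.6 under Python 3.11.15. The test scripts were tested on simulated data. The planned sign-flip and correlation tests were not run for ACACA, whose counts are given as ratios with exact intervals, or for SCD. The comparisons of ratios between conditions, of spread and of depth were added after the levels were seen.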

Additional observations from a re-analysis of the deposited data

How the results depend on the processing

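The log2 folds of FASN, DGAT1 and SREBF1 kept their direction in 51 of 51 alternatives, and none of the 3 genes passed the adjusted threshold in any. These alternatives refit the same 10 libraries or part of them, so they are not independent checks of direction. The share of all genes that kept their direction was not counted. Without single libraries the log2 folds ranged from 0.06 to 0.42, 0.37 to 0.72 and -0.47 to -0.11. DESeq2 called 21 genes, none of them a member, and leaving out single libraries gave 0 to 1 genes, the 1 without normal-conditioned replicate 1; the cause was not tested. The within-library log2 ratio ran from 0.56 to 0.73 for SREBF1 to FASN, from 0.96 to 1.15 for SREBF1 to DGAT1 and from 0.28 to 0.49 for FASN to DGAT1. That of FASN to DGAT1 passed only without over-conditioned replicate 1, the library most against the order of the pair. Without the 2 libraries farthest from the median of SREBF1, r turned to -0.093 with FASN and to -0.35 with DGAT1. Fewer samples and a narrower range of SREBF1 enter there. Without single libraries, r ran from 0.25 to 0.66 for SREBF1 and FASN, from 0.08 to 0.42 for SREBF1 and DGAT1 and from 0.17 to 0.65 for FASN and DGAT1. In the 8 libraries with 7 in their name, an alternative to the correlations chosen after seeing the data, these were 0.49, 0.35 and 0.53. The planned log2 folds of FASN, DGAT1 and SREBF1 in those libraries were 0.18, 0.78 and -0.32. Left out there were normal-conditioned replicates 4 and 5, the highest of their group for DGAT1 (7.39 and 6.87 CPM). The replicate block left 0 genes called, and the log2 folds with it were 0.20, 0.54 and -0.32, with an edgeR p of 0.0907 for DGAT1 before adjustment. Nothing in the labels pairs the numbers: the correlation of deviations between libraries of the same number ran from -0.218 to -0.000159, and the best match of a library had its own number in 0 of 10. At 25 to 116 counts per library, depth limits single values of the 3 genes, and the 2 counts of ACACA allow no comparison between the conditions.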
